A study of Arabidopsis thaliana with 12 samples.

Results

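The 31 genes described here drive or accompany cell division in Arabidopsis thaliana, and were taken by gene identifier from the 33557 genes of the RNA comparison. They comprise 6 mitotic cyclins, 3 D-type cyclins, 4 CDKB kinases, 4 genes of cytokinesis and of the Aurora kinase family, 6 subunits of the MCM helicase, 2 PCNA genes and 6 growth regulators. All 31 identifiers matched an entry of the RefSeq gene table. The list names them by identifier and uses no RNA level or histone mark.

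The material was rosette leaf of 4-week-old plants of accession Col-0, grown in days of 16 h light (22 °C) and 8 h dark (20 °C). The genotypes were an atx3/4/5 mutant, an sdg2 mutant and wild type, and the labels give neither the alleles nor the kind of mutation. ATX3, ATX4 and ATX5 are putative methyltransferases of lysine 4 of histone H3, and SDG2 (also called ATXR3) is another enzyme of that activity. H3K4me2 was profiled by ChIP-seq in atx3/4/5 and wild type, and H3K4me3 in atx3/4/5, sdg2 and wild type, with 1 library for each genotype and mark. RNA-seq covered atx3/4/5 and wild type with 2 libraries each, which the authors' deposited table combines into 1 value per gene and genotype. No spread between libraries can therefore be given for any value here, and read depth is unknown for both assays.

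In plants, D-type cyclins bind the kinase CDKA and phosphorylate the retinoblastoma-related protein RBR1, which frees E2F factors to switch on genes of DNA replication. The MCM proteins form the ring-shaped helicase that opens DNA at replication origins, and PCNA is the sliding clamp that holds DNA polymerases on the template. A- and B-type cyclins with CDKA and the plant-specific CDKB kinases drive mitosis, after which a cell plate is built between the daughter nuclei. GRF transcription factors with their partner GIF1, and the AP2-type factor ANT, keep cells of young leaves dividing. In grown leaves most cells have left the mitotic cycle. In bulk leaf RNA, fewer cells of a type and less RNA per cell cannot be told apart.

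The labels were checked against defining genes. All 5 mesophyll markers were strongly represented, with FPKM of 1457 to 9297 in the libraries labelled atx3/4/5 and 2397 to 16497 in wild type, and the 5 summed to 17037 FPKM in atx3/4/5 and 33486 FPKM in wild type. None of the 5 was called, all 5 stood lower in atx3/4/5, and the authors' deposited table gives CA1 and LHCB2.1 an unadjusted p under 0.05. The 5 shoot meristem markers summed to 11.2 FPKM in atx3/4/5 and 6.63 FPKM in wild type, and WUS and CLV3 were listed at 0 in wild type. The 4 floral organ markers summed to 3.34 FPKM in atx3/4/5 and 1.21 FPKM in wild type. The 4 stomatal lineage markers summed to 24.3 and 29.0 FPKM in atx3/4/5 and wild type, and the 3 root markers to 25.4 and 24.8 FPKM, with EXPA7 listed at 0 in both. None of the tested genes in these last 4 lists was called. Whether these marker values reflect a difference in cell makeup was not tested, nor was the part of such a difference in the results below. RNA of the mutated genes did not check the genotype label, so atx3/4/5 below stands for the libraries so labelled. ATX3 had 4.38 FPKM in the libraries labelled atx3/4/5 and 4.17 FPKM in wild type, and ATX5 had 3.76 and 3.93 FPKM. ATX4 had 2.88 FPKM in the libraries labelled atx3/4/5 against 1.05 FPKM in wild type (q of 0.0541, authors' deposited table).

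The RNA comparison asked whether the cell division genes differ between leaves labelled atx3/4/5 and wild type. A gene was called when its q-value in the authors' deposited table was under 0.05. None of the 30 members tested was called, in a comparison where 10.3% of 19021 tested genes were called, 4.92% higher and 5.4% lower. The smallest q among the members in the authors' deposited table was 0.0638, for MCM2. At an unadjusted p under 0.05 in that table, 6 of the 30 members differed, against 25.6% of all tested genes. MCM2, MCM4, MCM6 and HIK were the 4 higher ones (background 11.9%), and CYCA1;1 and CYCD3;2 were the 2 lower ones (background 13.7%). The share of higher members is near that of all tested genes, while the share of lower ones, like the share called, is smaller. These counts rest on few genes, and no test was run on them.

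Without a threshold, 21 of the 30 tested members stood above wild type in atx3/4/5, as did 48.6% of all tested genes. Their median log2 fold change, atx3/4/5 over wild type, was 0.35, against -0.04 for all tested genes. It ranged from -1.10 for CYCA1;1 to 1.48 for MCM6. The summed level of the 31 genes was nearly equal, at 211 FPKM in atx3/4/5 and 219 FPKM in wild type. The genes were weakly expressed: 24 of the 31 lay below the median wild-type level of tested genes, 9.09 FPKM, and 5 lay under 1 FPKM in wild type. CYCD3;2 was the most abundant and HIK the least abundant in wild type.

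**Figure D1:**
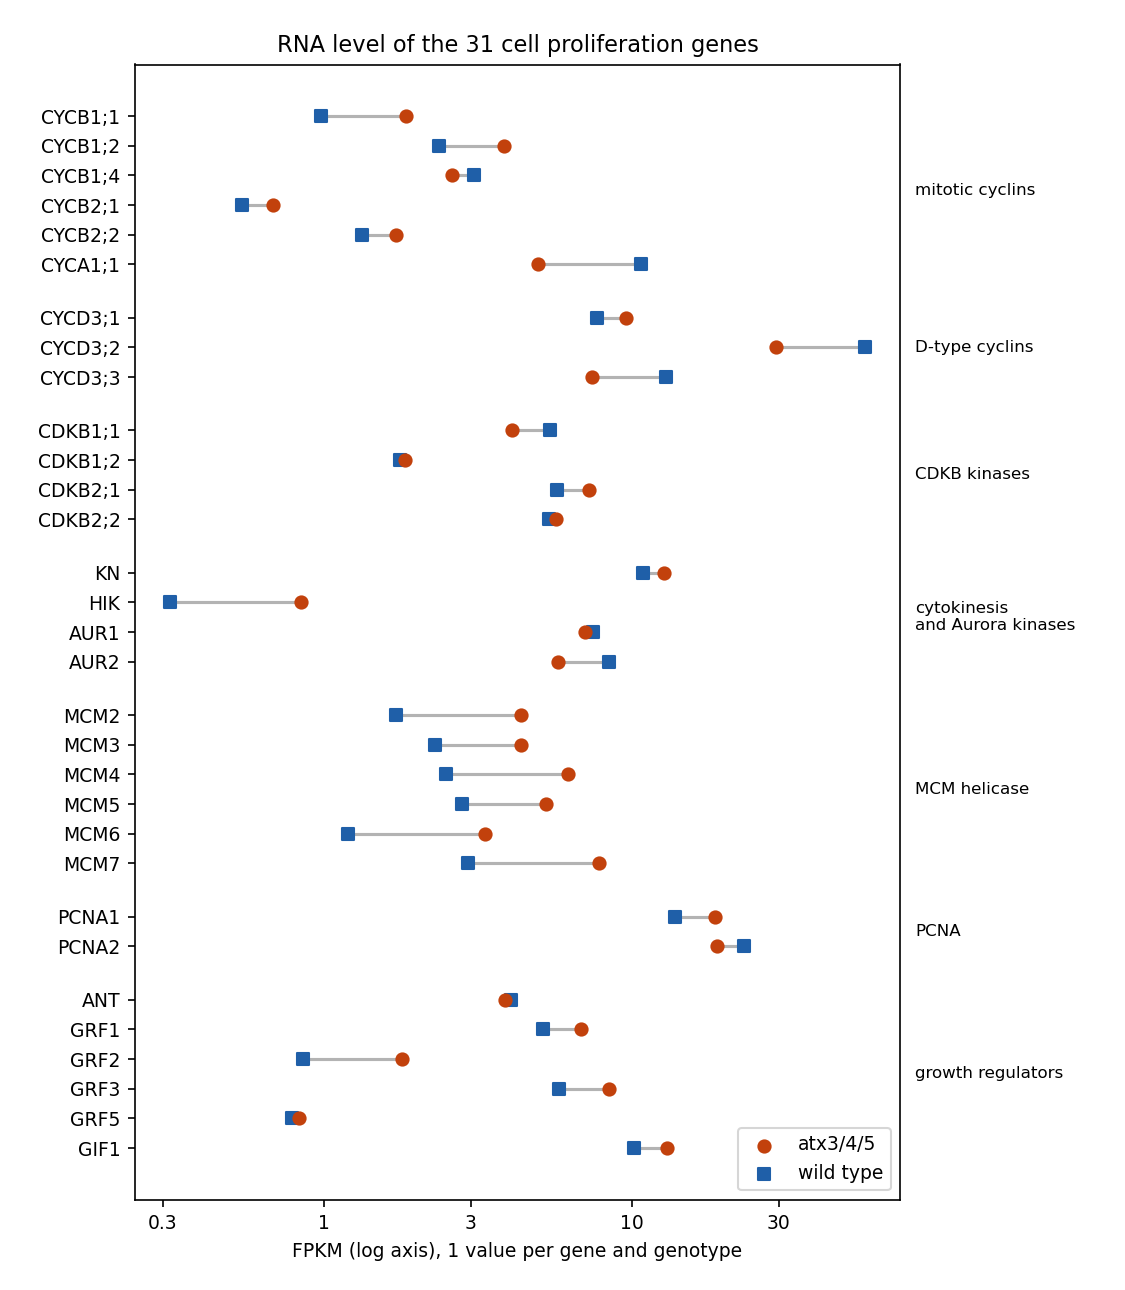
Level of each of the 31 cell proliferation genes in FPKM on a log axis, grouped by role, with a circle for atx3/4/5 and a square for wild type. Each is 1 value that the authors combined from 2 libraries. The circles of the 6 MCM genes lie right of their squares, while those of CYCA1;1, CYCD3;2 and CYCD3;3 lie left of theirs.

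Without allowance for gene length, the MCM genes made up the role with the highest median log2 fold change, 1.33. All 6 subunits were higher in atx3/4/5. Their levels summed to 31.4 FPKM in atx3/4/5 and 13.5 FPKM in wild type. MCM6 had 3.34 FPKM in atx3/4/5 and 1.20 FPKM in wild type, 2.78-fold apart (p of 0.0092 and q of 0.0709, authors' deposited table). MCM2 had 4.36 FPKM in atx3/4/5 and 1.72 FPKM in wild type, 2.53-fold apart (p of 0.0077 and q of 0.0638, authors' deposited table). MCM4 had 6.23 FPKM in atx3/4/5 and 2.50 FPKM in wild type, 2.49-fold apart (p of 0.00995 and q of 0.0742, authors' deposited table). These 3 subunits were the members with a q under 0.1, and none passed the threshold for a call.

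The other helicase subunits stood 1.87-fold to 2.67-fold above wild type. MCM3 had 4.38 FPKM in atx3/4/5 and 2.30 FPKM in wild type (q of 0.230, authors' deposited table). MCM5 had 5.28 FPKM in atx3/4/5 and 2.82 FPKM in wild type (q of 0.243, authors' deposited table). MCM7, listed as PRL in RefSeq, had 7.83 FPKM in atx3/4/5 and 2.94 FPKM in wild type (q of 0.272, authors' deposited table). Its value is uncertain, because the table gives it a locus shared with 3 other genes, and the sugar transporter gene STP7 at that locus had 12.7 FPKM in atx3/4/5 and 6.72 FPKM in wild type. Across the 6 subunits, levels ran from 3.34 to 7.83 FPKM in atx3/4/5 and from 1.20 to 2.94 FPKM in wild type. The upper end was the uncertain value of MCM7 in both genotypes.

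The fold change moved with gene length across the whole table, and the MCM genes are long. Among tested genes with a locus of their own, the median log2 fold change was 0.75 in the longest decile (from 4348 bp) and -0.73 in the shortest (up to 895 bp). In the longest decile 230 genes were called higher and 21 lower, and in the shortest 50 were called higher and 207 lower. The median MCM locus measured 4313.5 bp, against 2394 bp for all 31 members and 2398 bp for tested genes. With each gene's length decile median subtracted, the 5 MCM genes with a locus of their own kept log2 differences of 0.52 to 1.10, with a median of 0.59. The same subtraction gave a median of 0.45 for the 24 tested members with a locus of their own, these 5 included. By role, it gave 0.46 for mitotic cyclins, 0.36 for cytokinesis and Aurora genes and 0.32 for growth regulators. It gave 0.77 for PCNA1, 0.02 for 2 CDKB genes and -0.51 for D-type cyclins. The part of gene length in the higher level of the MCM genes was not tested further. The kinesin gene HIK has a locus of 4573 bp and lies in the longest decile as well, where its log2 difference after the subtraction was 0.67.

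**Figure D2:**
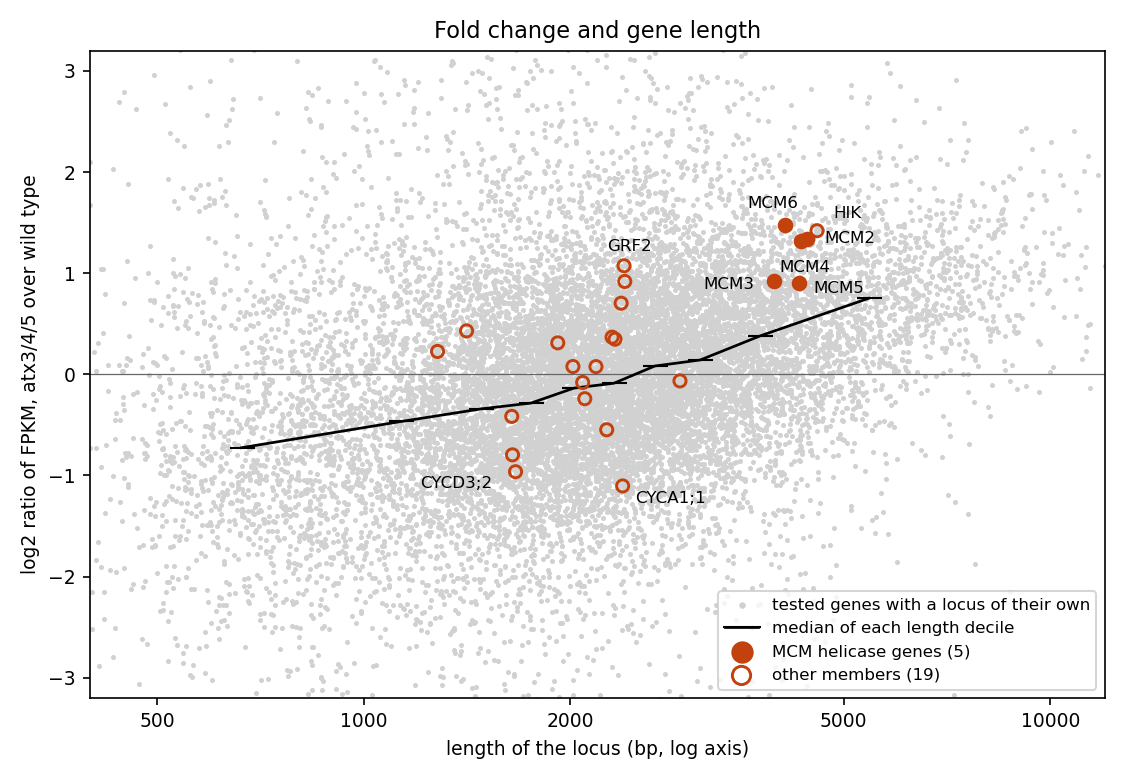
Log2 ratio of FPKM, atx3/4/5 over wild type, against locus length in bp on a log axis, where filled circles are the 5 MCM genes and open circles the other 19 tested members with a locus of their own, grey points are all such tested genes, and the line joins the medians of the length deciles. The line climbs with length, and all 5 MCM genes lie above it (a few grey points fall outside the axes).

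The D-type cyclins, which start the cycle in response to hormones and sugar, had a median log2 fold change of -0.80, with 2 of the 3 below 0. CYCD3;2 (AT5G67260) had 29.3 FPKM in atx3/4/5 against 57.2 FPKM in wild type, a log2 fold change of -0.96 (p of 0.0341 and q of 0.157, authors' deposited table). CYCD3;3 had 7.43 FPKM in atx3/4/5 and 12.9 FPKM in wild type (q of 0.273, authors' deposited table). CYCD3;1 went the other way, with 9.56 FPKM in atx3/4/5 and 7.71 FPKM in wild type. The 3 genes together held 46.3 FPKM in atx3/4/5 and 77.8 FPKM in wild type, and CYCD3;2 accounted for most of that gap.

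Among the mitotic cyclins, the A-type member was the 1 that differed from wild type at an unadjusted p under 0.05, and 3 of the 4 tested B-type members stood above wild type without reaching it. CYCA1;1 (AT1G44110) had 4.97 FPKM in atx3/4/5 against 10.7 FPKM in wild type, a log2 fold change of -1.10 (p of 0.0272 and q of 0.137, authors' deposited table). CYCB1;1, which marks cells about to enter or in mitosis, had 1.84 FPKM in atx3/4/5 and 0.976 FPKM in wild type (p of 0.146, authors' deposited table). CYCB1;2 had 3.84 FPKM in atx3/4/5 and 2.36 FPKM in wild type, and CYCB2;2 had 1.71 and 1.33 FPKM. CYCB1;4 had 2.60 FPKM in atx3/4/5 and 3.07 FPKM in wild type. CYCB2;1 was the member that the authors did not test, with 0.686 FPKM in atx3/4/5 and 0.545 FPKM in wild type.

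The mitotic kinases and cytokinesis genes had levels closer to wild type, except HIK. HIK (HINKEL, AT1G18370), a kinesin needed for the cell plate to expand, had 0.847 FPKM in atx3/4/5 against 0.316 FPKM in wild type, 2.68-fold apart (p of 0.0409 and q of 0.174, authors' deposited table). Both values are low. KN (KNOLLE, SYP111 in RefSeq), the syntaxin of cell plate vesicles, had 12.7 FPKM in atx3/4/5 and 10.9 FPKM in wild type. The Aurora kinases, which act on spindle and cell plate, stood below wild type without reaching a p under 0.05, with 7.05 FPKM in atx3/4/5 and 7.45 FPKM in wild type for AUR1, and 5.76 and 8.43 FPKM for AUR2.

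The 4 CDKB genes lay between -0.42 and 0.35 in log2 fold change. CDKB1;1 had 4.07 FPKM in atx3/4/5 and 5.43 FPKM in wild type, and CDKB2;1, at a locus shared with another gene, had 7.25 and 5.70 FPKM. CDKB2;2 had 5.69 FPKM in atx3/4/5 and 5.39 FPKM in wild type, and CDKB1;2, also at a shared locus, had 1.84 and 1.77 FPKM. The smallest p among the 4 in the authors' deposited table was 0.433. PCNA1, a gene of the sliding clamp, stood above wild type like the helicase genes, with 18.6 FPKM in atx3/4/5 and 13.8 FPKM in wild type (q of 0.611, authors' deposited table). Its log2 difference was 0.43, and 0.77 with its length decile median subtracted. PCNA2 stood below wild type, with 18.9 FPKM in atx3/4/5 and 23.1 FPKM in wild type, and its locus is shared with the enolase gene ENOC.

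The growth regulators had a median log2 fold change of 0.38, with 5 of 6 above 0. GRF2 differed the most, with 1.80 FPKM in atx3/4/5 and 0.856 FPKM in wild type (p of 0.0658 and q of 0.228, authors' deposited table). GIF1 (ANGUSTIFOLIA3, AN3 in RefSeq), the coactivator of the GRF proteins, had 12.97 FPKM in atx3/4/5 and 10.2 FPKM in wild type. GRF3 had 8.43 FPKM in atx3/4/5 and 5.79 FPKM in wild type, and GRF1 had 6.86 and 5.14 FPKM, both at loci shared with another gene. ANT had 3.87 FPKM in atx3/4/5 and 4.05 FPKM in wild type, and GRF5 had 0.833 and 0.790 FPKM.

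Outside the list, 64 further genes of the cell cycle and of leaf growth were followed in 8 lists, of which 60 were tested. RBR1 (AT3G12280), the retinoblastoma-related repressor of E2F factors, was the 1 gene called higher, and no gene was called lower. Over all 19021 tested genes, 4.92% were called higher and 5.4% lower. RBR1 rose to 13.1 FPKM in atx3/4/5, against 5.00 FPKM in wild type, 2.62-fold (p of 0.0033 and q of 0.0369, authors' deposited table). Its locus of 5759 bp is in the longest decile, where 230 of 1564 genes were called higher. The log2 difference of RBR1 after subtracting the decile median was 0.64. The 6 genes of the E2F, DP and RBR list were all higher, with a median log2 fold change of 0.60, and RBR1 was its 1 called gene.

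In the other 7 lists no gene was called, and the medians differed between lists. The 9 tested A- and B-type cyclins outside the 31 had a median log2 fold change of 0.40, the 9 CDK inhibitors 0.16 and the 11 other cell cycle regulators 0.70. The 6 further D-type cyclins had a median of -0.43, with 5 of 6 below 0. The 8 tested origin licensing genes, whose products load the MCM ring onto DNA, had a median of -0.05. The other GRF and GIF genes had a median near 0 (-0.004, 6 tested), and the 5 CIN-TCP genes, which end proliferation in leaves, had -0.10. With length decile medians subtracted, over tested genes with a locus of their own, the order of these lists changed. The medians were then 0.64 for CDK inhibitors, 0.49 for A- and B-type cyclins and 0.38 for other cell cycle regulators. They were 0.08 for GRF and GIF genes, -0.02 for origin licensing genes, -0.39 for D-type cyclins and -0.47 for CIN-TCP genes. The inhibitor gene KRP6 had 8.08 FPKM in atx3/4/5 and 3.33 FPKM in wild type (q of 0.146, authors' deposited table). MYB3R1, a transcription factor of mitotic genes, had 3.29 FPKM in atx3/4/5 and 1.69 FPKM in wild type (q of 0.189, authors' deposited table). CYCD1;1 had 5.77 FPKM in atx3/4/5 and 14.3 FPKM in wild type, a log2 fold change of -1.31 (q of 0.0609, authors' deposited table).

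The chromatin data answer which of the 31 loci carry H3K4me2 and H3K4me3, and whether the called peaks differ between mutant and wild-type leaves. H3K4me3 sits mainly at the beginnings of transcribed genes, and H3K4me2 reaches further into gene bodies and onto weakly transcribed genes. A locus was counted as carrying a mark when a peak of the authors' list overlapped it by at least 1 bp. Intervals of shares are exact 95% binomial ones (Clopper-Pearson) for counting error alone, and with 1 library a group no test was run. Tested genes on the nuclear chromosomes, 18909 in all, serve as the background.

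In wild-type leaves the proliferation genes carried H3K4me2 widely but H3K4me3 seldom. H3K4me2 peaks overlapped 30 of the 31 loci (96.8%, interval 83.3 to 99.9%), against 79.1% of tested genes. H3K4me3 peaks overlapped 11 of the 31 (35.5%, interval 19.2 to 54.6%), against 81.7%. The combination of H3K4me2 without H3K4me3 was found at 19 of the 31 (61.3%, interval 42.2 to 78.2%), against 8.95% of tested genes. AUR2 had no peak of either mark in any of the 5 lists.

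The 11 members with wild-type H3K4me3 were CYCB2;1, CYCD3;2, CYCD3;3, CDKB1;2, MCM2, MCM7, PCNA1, PCNA2, GRF1, GRF2 and GRF3. In 5 of these the locus is shared with another gene, so the peak cannot be assigned to the member, and at CYCB2;1 it covered just 44 bp at the edge of the locus. Among the 25 members with a locus of their own, 6 carried H3K4me3 (24.0%), against 79.1% of tested genes of that kind. None of the 4 cytokinesis and Aurora genes carried it at the locus in any genotype. At HIK, a wild-type H3K4me3 peak (score 1112.21, 66.9 percentile of its list) ended 45 bp before the locus. Those of atx3/4/5 and sdg2 ended 260 bp and 363 bp before it. With 500 bp added on each side, H3K4me3 overlapped 14 of the 31 loci in wild type (45.2%), against 84.4% of tested genes. H3K4me2 without H3K4me3 was then found at 16 of the 31 (51.6%), against 8.09%.

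Members with and without wild-type H3K4me3 overlapped in RNA level. The 11 with H3K4me3 had wild-type levels of 0.545 to 57.2 FPKM (median 5.14), and the 20 without had 0.316 to 10.9 FPKM (median 3.56). Shared loci, where a peak cannot be assigned, made up 5 of the 11 and 1 of the 20. The part of RNA level in the presence of the mark was not tested. KN and CYCA1;1 carried no H3K4me3 peak at 10.9 and 10.7 FPKM, while GRF2 carried one at 0.856 FPKM. In bins of wild-type level, the share with H3K4me3 was 2 of 5 members against 51.7% of tested genes from 0.3 to 1 FPKM, and 3 of 9 against 67.1% from 1 to 3 FPKM. It was 2 of 10 against 83.3% from 3 to 10 FPKM, and 4 of 7 against 92.5% from 10 to 60 FPKM. The interval of the members lay wholly below the background share in the bin from 3 to 10 FPKM and in that from 10 to 60 FPKM.

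**Figure D3:**
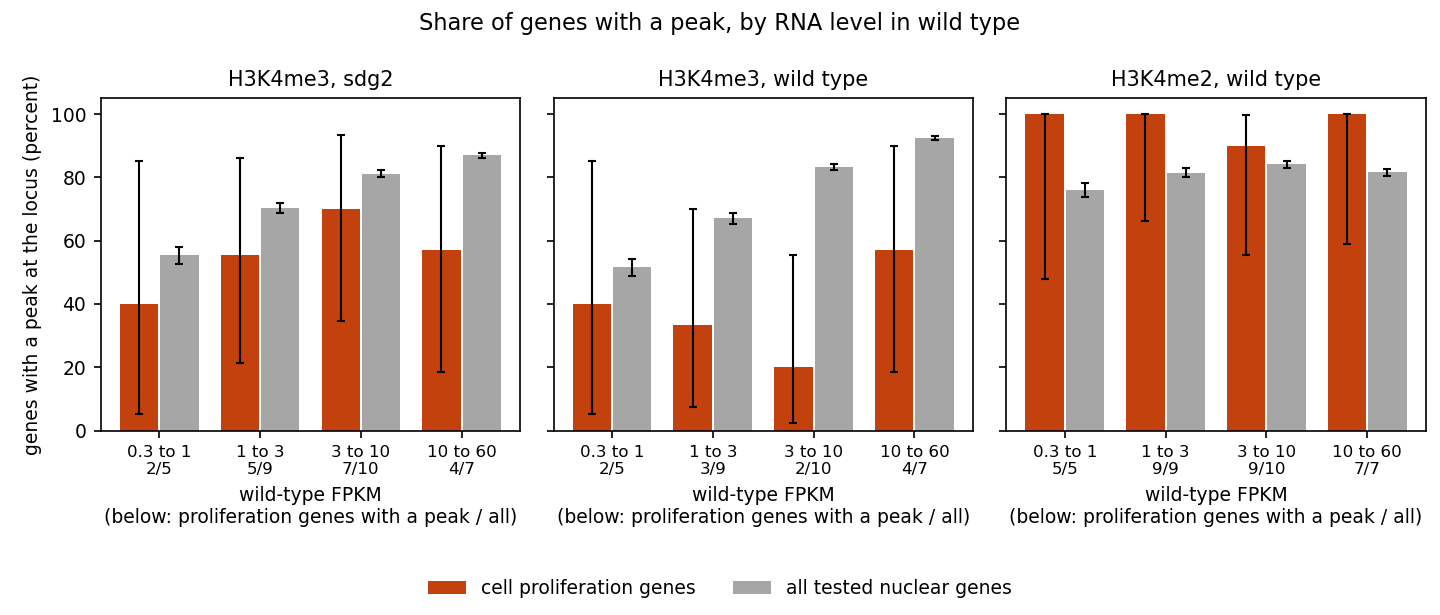
Share of genes in percent with an H3K4me3 peak in sdg2 (left) and wild type (middle), and with an H3K4me2 peak in wild type (right), in 4 bins of wild-type FPKM, for the 31 proliferation genes and for all tested nuclear genes. Error bars are exact 95% intervals and cover counting error only. In wild type the H3K4me3 bars of the members are the lower of each pair and the H3K4me2 bars the higher of each pair.

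In atx3/4/5 the H3K4me2 peaks covered a smaller part of the proliferation genes. Over all 31 loci they covered 23473 bp in atx3/4/5 and 52551 bp in wild type, or 44.7% of the wild-type length, against 68.7% for tested genes and 62.5% for the 64 further cell cycle genes. That was 23.4% of the bases of these loci in atx3/4/5 and 52.5% in wild type, against 31.6% and 46.0% for tested genes. Fewer bases were covered in atx3/4/5 at 28 of the 30 loci with wild-type H3K4me2 (93.3%), a share near the 87.3% of tested genes. The lists themselves differ, with 16650 peaks over 17.3 Mb in atx3/4/5 and 20585 peaks over 26.2 Mb in wild type, and the part of library depth in this was not tested.

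The remaining H3K4me2 varied between roles, for which no test was run. In atx3/4/5 it covered 3421 bp of the mitotic cyclin loci, against 6840 bp in wild type. At cytokinesis and Aurora loci it covered 17.7% of the wild-type length, at growth regulators 33.9%, at MCM genes 45.8%, at PCNA genes 59.6%, at CDKB genes 60.9% and at D-type cyclins 68.7%. CYCA1;1 went down to 405 bp in atx3/4/5, against 2038 bp in wild type, and HIK to 1056 bp in atx3/4/5, against 3519 bp in wild type. MCM2 was nearly the same in covered bases, with 1000 bp in atx3/4/5 and 1014 bp in wild type. Its best score was 175.22 in atx3/4/5 and 732.38 in wild type. CDKB2;1 and CDKB2;2 were the loci with more H3K4me2 bases in atx3/4/5, with 1195 bp against 679 bp in wild type at CDKB2;1 and 1350 bp against 752 bp in wild type at CDKB2;2. At both, a further atx3/4/5 peak lay inside the locus, with a score of 50.15 at CDKB2;1 and 63.95 at CDKB2;2, near the lowest score of 50. The best score was 67.13 in atx3/4/5 against 272.16 in wild type at CDKB2;1, and 81.92 against 791.54 at CDKB2;2. The locus of CDKB2;1 is shared with another gene. Over peaks with a score of at least 100, 25 of 25 loci were less covered in atx3/4/5 (tested genes 88.9%).

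At 8 of the 30 loci no H3K4me2 peak was left in atx3/4/5 (26.7%, interval 12.3 to 45.9%), against 18.1% of tested genes, which lies inside that interval. They were CYCB2;2, CDKB1;1, KN, AUR1, MCM3, MCM6, ANT and GRF5, all with a locus of their own. In wild type H3K4me2 covered 2636 bp of MCM3, 1730 bp of GRF5, 1363 bp of AUR1, 1270 bp of CDKB1;1, 1192 bp of ANT, 1083 bp of KN, 578 bp of CYCB2;2 and 369 bp of MCM6. Of these 8, CYCB2;2, CDKB1;1, MCM6 and GRF5 had wild-type peaks with a score under 100 alone, near the lowest score of 50 in the lists. With wild-type peaks limited to scores of at least 100, H3K4me2 was absent at 4 of 25 loci (16.0%), against 12.9% of tested genes, and with that limit on both lists at 13 of 25 (52.0%), against 3837 of 12793 tested genes. AUR2, the 1 locus without H3K4me2 in wild type, gained none in atx3/4/5, where 13.8% of such tested genes had a peak. In all, 22 of the 31 loci carried H3K4me2 in atx3/4/5 (71.0%), against 67.6% of tested genes. At CYCB2;1 the atx3/4/5 peak covered just 8 bp at the edge of the locus. With an overlap of at least 200 bp the count was 21 (67.7%), against 67.4% of tested genes. Over peaks with a score of at least 100 the order turned, with 12 of the 31 loci (38.7%) against 50.1% of tested genes.

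The genes without H3K4me2 in atx3/4/5 and those that kept it overlapped in RNA difference. The 8 genes without a peak in atx3/4/5 had a median log2 fold change of 0.15, from -0.42 for CDKB1;1 to 1.48 for MCM6, and 5 of them stood above 0. The 22 that kept a peak had a median of 0.38, from -1.10 for CYCA1;1 to 1.42 for HIK. Of those, 17 stood above 0, CYCB2;1 with its overlap of 8 bp included.

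**Figure D4:**
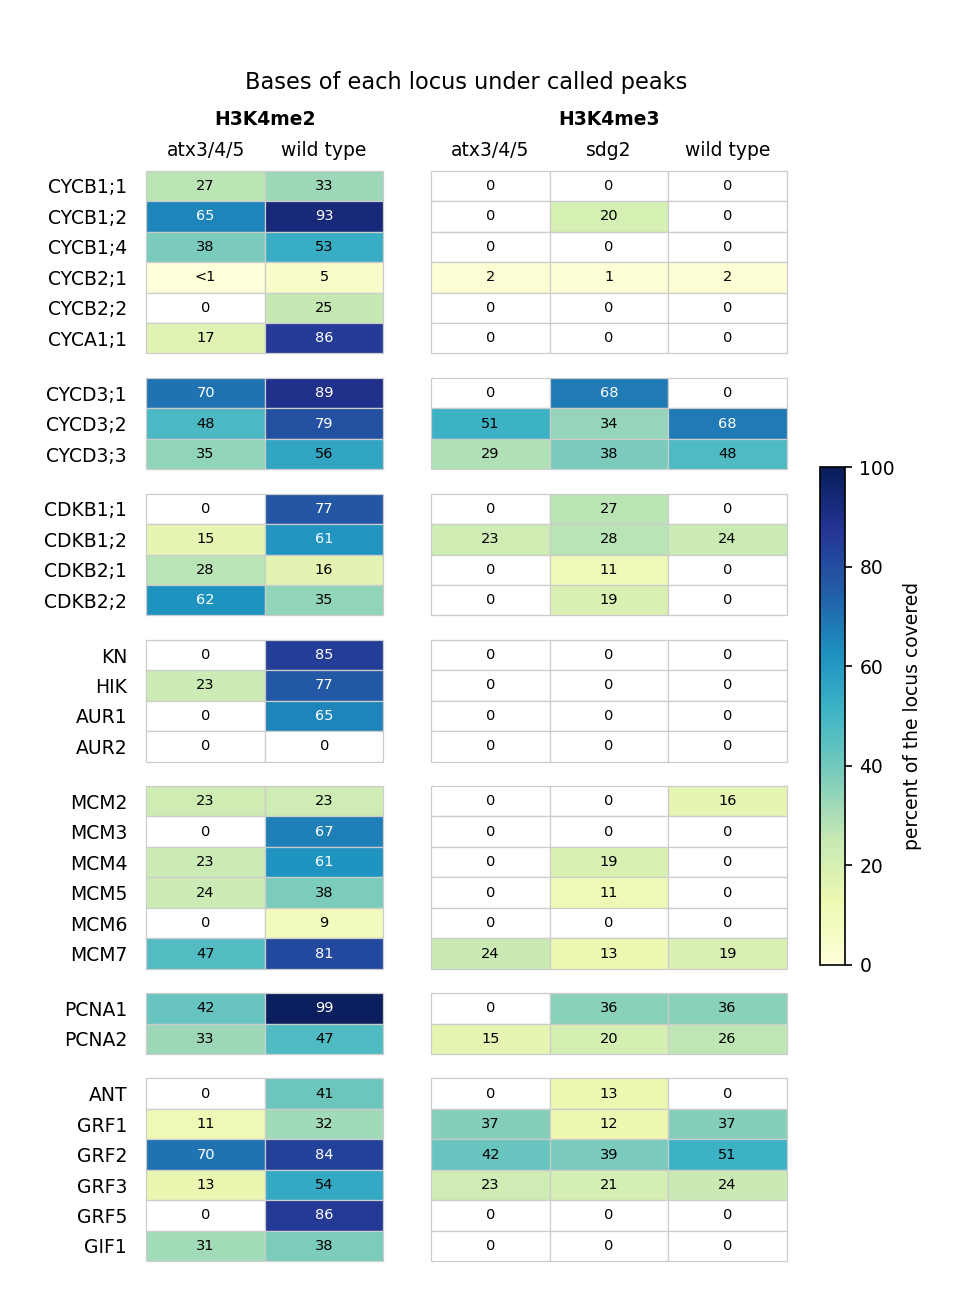
Percent of each of the 31 loci covered by called peaks, by role from top to bottom, for H3K4me2 in atx3/4/5 and wild type and for H3K4me3 in atx3/4/5, sdg2 and wild type, where darker cells are covered further. The H3K4me2 column of atx3/4/5 is paler than that of wild type at 28 loci, and the sdg2 column has H3K4me3 at 8 loci where that of wild type has none.

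H3K4me3 in atx3/4/5 covered 9683 bp of the 31 loci, against 11984 bp in wild type, which is 80.8% of the wild-type length and compares with 92.5% for tested genes. The percentage was 82.0% with 500 bp added on each side and 86.8% over peaks with a score of at least 100. Over members with a locus of their own, a setting chosen after seeing the data, it was 54.5%. H3K4me3 overlapped 9 loci in atx3/4/5 (29.0%), against 78.2% of tested genes. Fewer bases were covered at 10 of the 11 loci marked in wild type, a direction seen at 64.2% of tested genes, and the exception was MCM7. At CYCD3;2, H3K4me3 covered 854 bp in atx3/4/5 and 1132 bp in wild type, and H3K4me2 covered 804 bp and 1313 bp. At CYCD3;3, H3K4me3 covered 481 bp in atx3/4/5 and 783 bp in wild type.

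MCM2 and PCNA1 had no H3K4me3 peak in atx3/4/5 (2 of 11, 18.2%, interval 2.28 to 51.8%), against 7.04% of tested genes. No locus gained H3K4me3 in atx3/4/5 among 20 without it, against 11.9% of such tested genes. The wild-type peak of MCM2 (chr1:16970118-16970901, TAIR10) was weak, with a score of 79.05 from the authors' peak caller, at the 2.97 percentile of its list. At PCNA1 the wild-type peak (chr1:2262036-2263642) reached 503 bp into the locus. The atx3/4/5 peak (chr1:2262106-2263113) ended 27 bp before the locus, so a shorter peak remained beside the gene.

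In sdg2 H3K4me3 peaks overlapped more of the proliferation loci than in wild type, whereas over tested genes as a whole they did not. The 64 further cell cycle genes moved the same way, from 65.6% of loci in wild type to 75% in sdg2. So did tested genes of low wild-type level, from 51.7% in wild type to 55.4% in sdg2 at 0.3 to 1 FPKM. At 1 to 3 FPKM these shares were 67.1% and 70.4%. Tested genes went the other way at 3 to 10 FPKM (83.3% and 81.1%) and at 10 to 60 FPKM (92.5% and 87.1%). Peaks overlapped 18 of the 31 loci in sdg2 (58.1%, interval 39.1 to 75.5%), against 79.1% of tested genes. They covered 12980 bp of the 31 loci in sdg2 and 11984 bp in wild type, or 108% of the wild-type length, against 65.9% for tested genes. The excess over wild type depended on the setting. It was lost with 500 bp added on each side of the loci (98.6%) and over peaks with a score of at least 100 (94.0%). Over members with a locus of their own, a setting chosen after seeing the data, it was larger (159%). The comparisons of atx3/4/5 and sdg2 share the same wild-type H3K4me3 library. No RNA library of sdg2 was used here, so no RNA level goes with these marks.

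The gain came from loci without a wild-type peak. H3K4me3 appeared in sdg2 at 8 of 20 such members (40.0%, interval 19.1 to 63.9%), against 22.6% of such tested genes, which lies inside the interval. Over peaks with a score of at least 100 the gain was at 5 of 21 (23.8%), against 17.2% of such tested genes. The 8 were CYCB1;2, CYCD3;1, CDKB1;1, CDKB2;1, CDKB2;2, MCM4, MCM5 and ANT. Of the 4 CDKB loci, those of CDKB1;1 and CDKB2;2 belong to 1 gene each, while the locus of CDKB2;1 is shared with another gene, so that its peak cannot be assigned. None of the 8 had an H3K4me3 peak at the locus in atx3/4/5.

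The sdg2 peaks at these loci were short and mostly low in rank. That of MCM4 (chr2:7129858-7130722) was the strongest, covering 828 bp of the locus at the 44.0 percentile of scores in its list. CYCD3;1 had a pair of peaks (chr4:16357634-16358449 and chr4:16358863-16359356) over 1305 bp, at most at the 18.4 percentile. The others covered 383 bp at ANT (chr4:17740393-17740775, 6.46 percentile), 417 bp at CDKB2;2, 443 bp at CDKB1;1, 474 bp at CYCB1;2, 475 bp at CDKB2;1 and 480 bp at MCM5. All 8 loci carried H3K4me2 in wild type. At 7 of the 8 the sdg2 peak lay within the span of a wild-type H3K4me2 peak, and at CYCD3;1 this held for 1 of its pair.

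Members already marked in wild type were mostly less covered in sdg2, like tested genes. H3K4me3 covered fewer bases in sdg2 at 9 of the 11 (81.8%), against 93.2% of tested genes, with CDKB1;2 and PCNA1 as exceptions. MCM2 was the 1 member of the 11 without a peak in sdg2 (9.09%), against 8.24% of tested genes. Its wild-type peak is the weak one described above. CYCD3;2 had 565 bp of H3K4me3 in sdg2 and 1132 bp in wild type, and GRF1, at its shared locus, had 549 bp and 1698 bp.

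**Figure D5:**
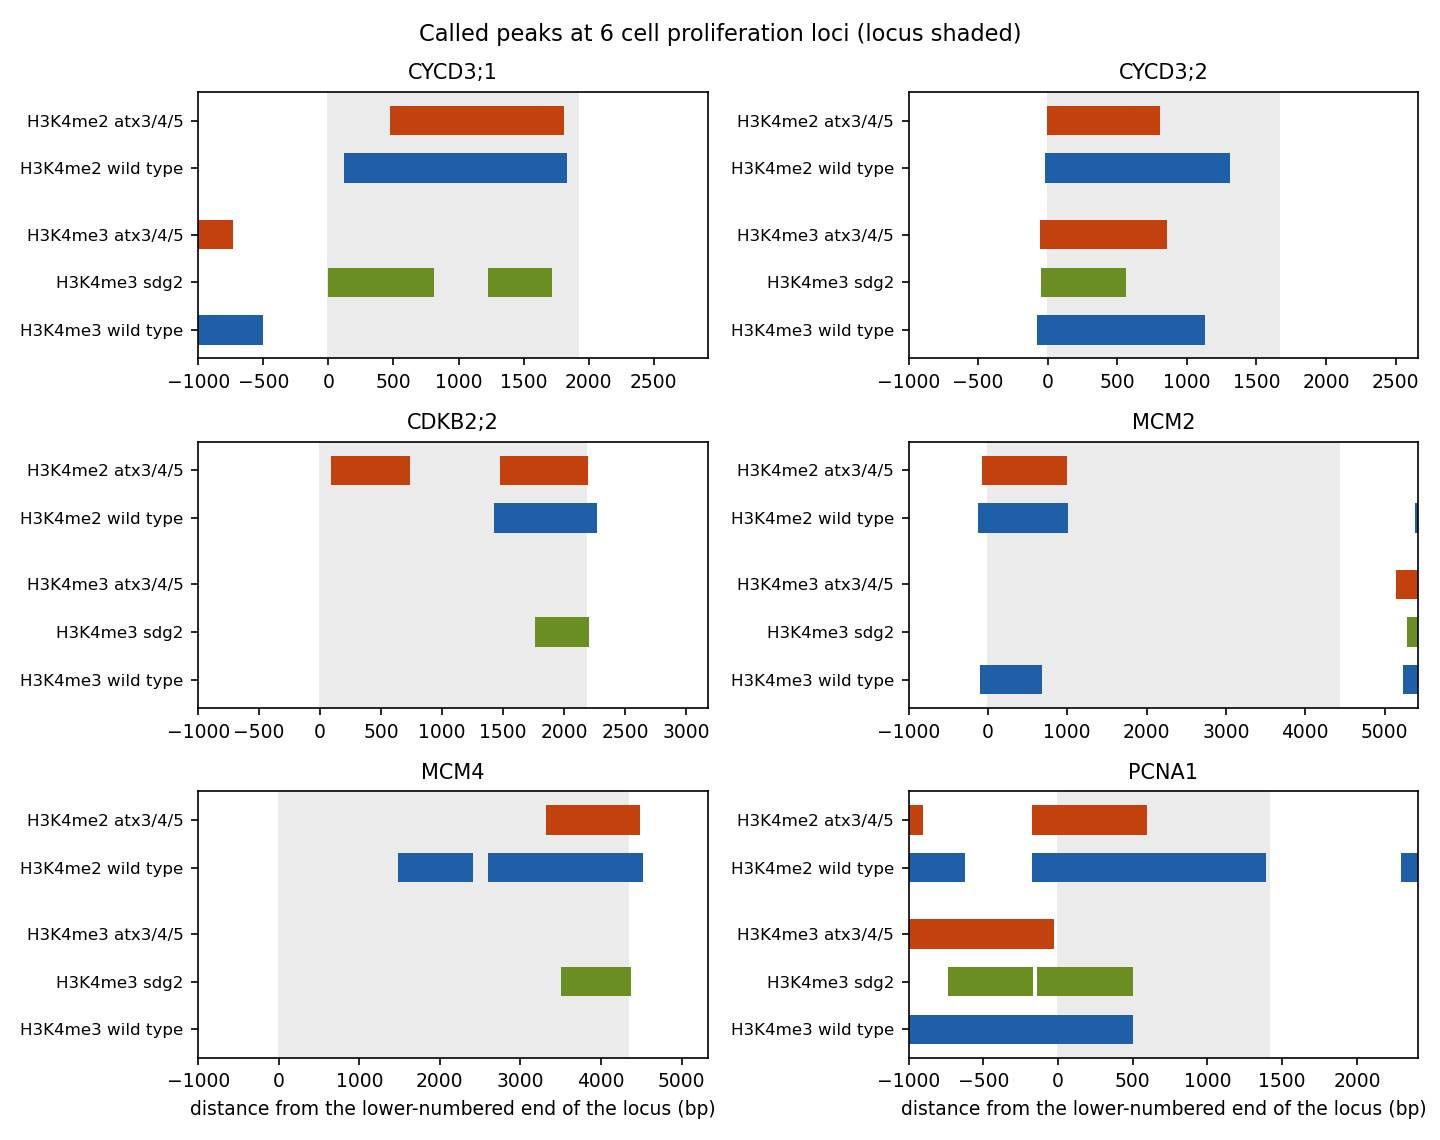
Called peaks at 6 loci, with distance in bp from the lower-numbered end of the locus and the locus shaded. The rows are H3K4me2 in atx3/4/5 and wild type and H3K4me3 in atx3/4/5, sdg2 and wild type. CYCD3;1, CDKB2;2 and MCM4 show the sdg2 peaks at loci without wild-type H3K4me3, MCM2 the wild-type peak without a counterpart, and PCNA1 the atx3/4/5 peak that stops 27 bp before the locus.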

How the data were processed

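RNA levels are FPKM values of the authors' deposited table, with its p-values and q-values, laid out as Cuffdiff writes them. The submitters' processing notes name TopHat2 2.0.10, Cufflinks 2.2.1, Bowtie 1.0.1 and MACS 1.4.2, and the TAIR10 build. Each deposited peak list gives a score per peak by the authors, taken to be 10 times the negative log10 of the peak's p. The inputs were not analysed here. The sources used here do not say whether counting used strand, nor whether the 2 RNA libraries of each genotype are separate plants, so p-values may measure technical spread.

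Log2 fold changes are ratios of FPKM, atx3/4/5 over wild type, without pseudocount. The deposited log2 column was not used, since some cells hold a spreadsheet error. Of 33557 genes, 14535 were not tested and 1 had too many reads. Names, but no positions, come from RefSeq on TAIR10.1. Positions are the table's loci, counted from 1; overlapping genes share a locus, which held for 6 of the 31 members (CDKB1;2, CDKB2;1, MCM7, PCNA2, GRF1 and GRF3). Members named in full had an unadjusted p under 0.05, the highest or lowest level of their role, no test, or a mark absent or gained in a mutant; of the 64 other genes, those called or with p under 0.05 were named. Scripts (Python 3.11.15, pandas 2.3.3, scipy 1.17.1) were tested on simulated data. The members and lists were chosen with earlier results of these data known. No per-sample column was left unused (0 columns).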

Additional observations from a re-analysis of the deposited data

How the results depend on the processing

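Of 84 recomputed values, 68 kept their direction and stayed within the limits set, and 16 moved. Members called in RNA numbered 3 at a q under 0.1 and 6 at an unadjusted p under 0.05, against 0. Centred within length deciles, over loci not shared, the median log2 fold change was 0.59 for MCM genes, against 1.33, and 0.77 for the 1 PCNA gene left, against 0.07. With scores of at least 100 in both lists, 12 loci carried H3K4me2 in atx3/4/5 (38.7%, tested genes 50.1%), against 22, and it was absent at 13 of 25, against 8 of 30; with that limit on wild type alone it was absent at 4. H3K4me3 was absent in atx3/4/5 at 1 locus with 500 bp added on each side, and at 1 with the limit on wild type, against 2. It was absent in sdg2 at 0 loci under either score limit, against 1. Gains in sdg2 numbered 5 with the score limit, against 8. Covered length in sdg2 was 98.6% of wild type with 500 bp added and 94.0% with the score limit, against 108%. For loci not shared it was 159% in sdg2 and, for H3K4me3 in atx3/4/5, 54.5% against 80.8%, neither counted as moved. Over loci not shared, an alternative chosen after seeing the data as was that on gains, 6 carried H3K4me3 in wild type, against 11, and 4 in atx3/4/5, against 9. The cause of these shifts was not tested. No paired analysis was possible because the table holds 1 combined value per genotype and each mark has 1 library. For the same reason no replicate could be left out, and unknown depth limits every absent or gained peak.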

Other observations

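The 64 cell cycle genes outside the 31 lay between the 31 and tested genes in H3K4me3. In wild type it overlapped 42 of these 64 loci (65.6%, interval 52.7 to 77.1%), against 35.5% of the 31 and 81.7% of tested genes, and H3K4me2 without H3K4me3 was found at 19 (29.7%). All 6 genes of the E2F, DP and RBR list and all 9 CDK inhibitors carried H3K4me3 in wild type, as did 2 of 7 other GRF and GIF genes. H3K4me2 was absent in atx3/4/5 at 13 of 59 loci (22.0%, interval 12.3 to 34.7%), against 18.1% of tested genes, which lies inside the interval. RBR1, the gene called higher, had 2062 bp of H3K4me2 in atx3/4/5 and 1675 bp in wild type, and 1062 bp of H3K4me3 in atx3/4/5, 418 bp in sdg2 and 895 bp in wild type. Its best H3K4me2 score was 140.49 in atx3/4/5, over 2 peaks, and 256.32 in wild type, over 1 peak.

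H3K4me3 was absent in atx3/4/5 at 6 of 42 of these loci (14.3%, interval 5.43 to 28.5%), against 7.04% of tested genes, which lies inside the interval. The 6 were ORC1B, CDC6, CDT1A, CYCA2;3, CYCD6;1 and KRP3. In sdg2 it was absent at GIF3 and TCP24 (2 of 42, 4.76%), against 8.24% of tested genes. It appeared in sdg2 at 8 of 22 loci without it in wild type (36.4%, interval 17.2 to 59.3%), against 22.6% of such tested genes, again inside the interval. With 1 library for each genotype and mark, no replicate check exists for any of these.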
